A study of Cavia porcellus with 34 samples.

Results

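The 10 genes described here encode the machinery that turns peptide precursors into hormones and stores them in dense-core granules. They were found by their symbols among 12114 genes in the F1 table, 12207 in F2 and 12068 in F3: all 10 are listed in F1, and 9 are listed in F2 and in F3. CHGB was not analysed here in F2 and F3. The genes were PCSK1, PCSK2, CPE, PAM, SCG2, SCG3, SCG5, CHGA, CHGB and VGF.

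RNA was sequenced from micropunches of the paraventricular nucleus (PVN) of female Dunkin-Hartley guinea pigs on postnatal day 40. Pregnant F0 dams had received 3 courses of betamethasone, a synthetic glucocorticoid (sGC, 1 mg/kg; Beta in the labels), or saline (Veh; Control in the labels). F1 are the offspring of these dams (5 animals a group). F2 (also 5 a group) and F3 (6 a group) descend from them through males of each generation mated with naive females, so that only the F1 animals were themselves exposed in utero. Each sample is 1 animal, and the punch held the whole nucleus and may have held neighbouring hypothalamus. In F3, sGC replicates 5 and 6 were sequenced in a second batch, and the other 4 sGC and the 6 Veh libraries used here came from the first. The values are normalized counts, corrected by the authors within each generation, so levels were compared only within a generation, and levels of different genes were not compared because they depend on gene length.

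Peptide hormones are made as inactive precursors. In the regulated secretory pathway the precursors and granins are sorted into forming granules, the prohormone convertases PCSK1 and PCSK2 cut at paired basic residues, carboxypeptidase E (CPE) trims the residues left behind, and peptidylglycine alpha-amidating monooxygenase (PAM) amidates peptides that end in glycine. In the PVN this pathway yields vasopressin, oxytocin, CRH and TRH, which reach the posterior pituitary or the median eminence. SCG5 is the chaperone of PCSK2, SCG2, SCG3, CHGA and CHGB are granins that take part in granule formation, and VGF is a granule protein that is itself cut into peptides.

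The summed normalized counts per animal, in M (mega), were 15.57 to 21.94 in F1, 15.65 to 19.44 in F2 and 18.69 to 18.98 in F3. Because the sums differed between animals in F1 and F2, every comparison was also made after median-of-ratios scaling, which sets the animals to a common level. The 9 genes listed in all generations made up 0.536 to 0.652% of an animal's sum. The median share was 0.602% in Veh against 0.58% in sGC in F1, 0.562% against 0.583% in F2 and 0.607% against 0.587% in F3, and the groups overlapped in each generation. The PVN transcription factors SIM1 and OTP were present in every animal, at 739 or more normalized counts for SIM1. The summed pituitary hormone markers reached at most 10.17 per M in any animal. Of the 6 markers in that list only 2 were tested in F1, 1 in F2 and 2 in F3, so a low sum does not show that pituitary tissue was absent.

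None of the members differed between sGC and Veh in any generation at an adjusted p-value under 0.05 (limma with Benjamini-Hochberg adjustment over all genes tested): 0 of 10 in F1, 0 of 9 in F2 and 0 of 9 in F3. The share of all genes called was 0.657% in F1, 0% in F2 and 0.0506% in F3. At an unadjusted p-value under 0.05 there were 0 members in F1 (13.6% of all genes), 0 in F2 (11.7%) and 2 in F3, PCSK1 and CHGA (13.1%). After median-of-ratios scaling the members called were again 0 in each generation, where 17.3% of all genes were called in F1, 0% in F2 and 0.0421% in F3, and the unadjusted count was 1 in F1 (SCG3; 33.0% of all genes), 1 in F2 (PCSK1; 12.8%) and 2 in F3 (13.2%). For every member the values of the sGC and Veh animals overlapped in every generation, while 2.04% of all genes in F1, 2.40% in F2 and 1.21% in F3 had groups that did not overlap.

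**Figure D1:**
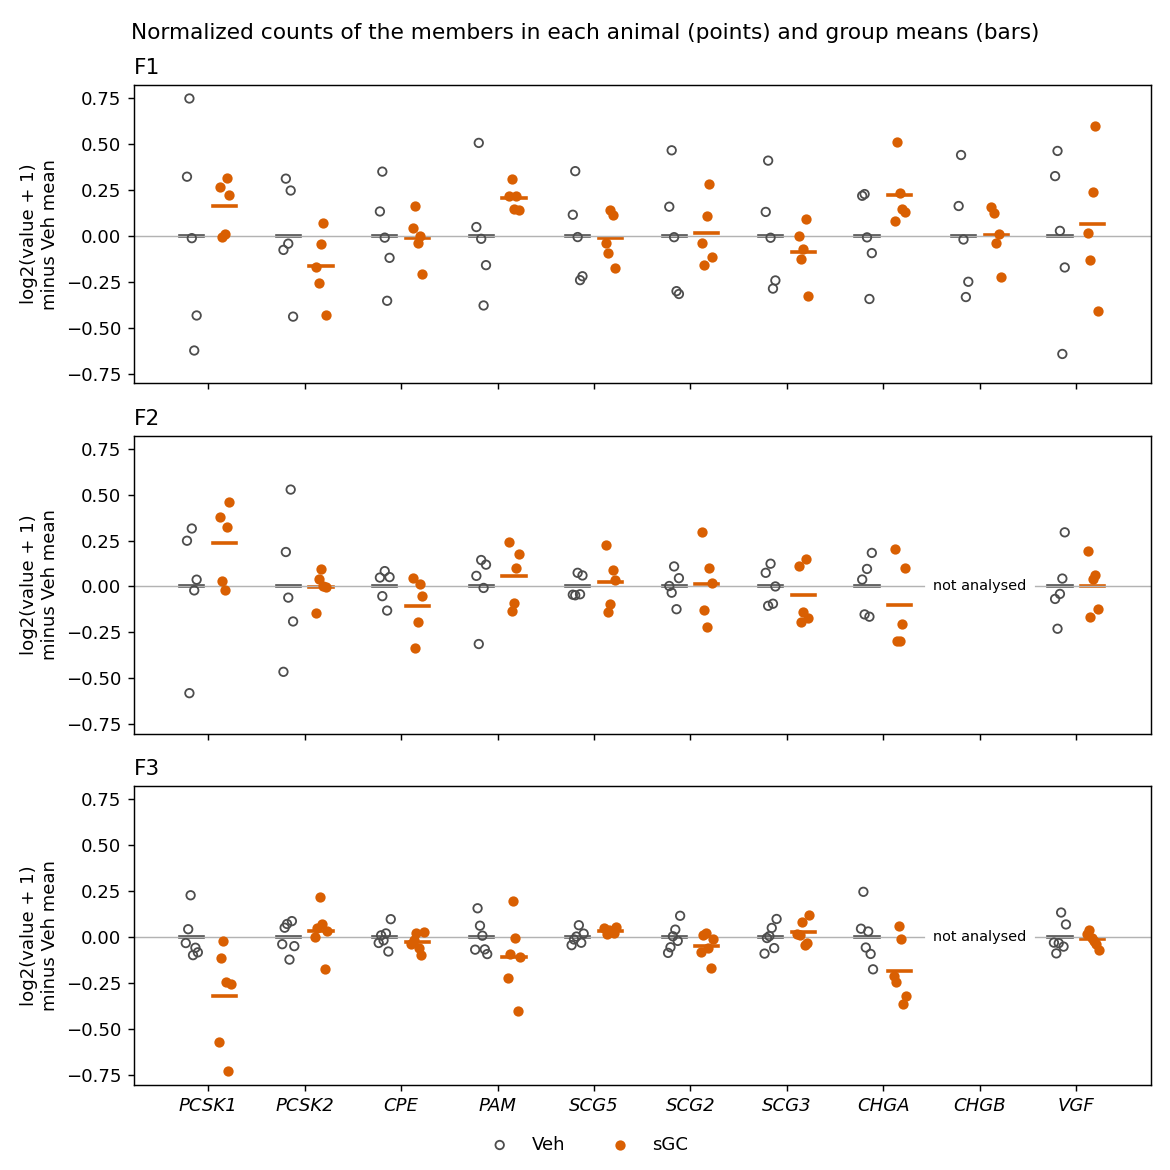
Each point is 1 animal, as log2(value + 1) minus the mean of the Veh animals of its generation (vertical axis, log2 units), for each member (horizontal axis); open points are Veh, filled points sGC, and bars are group means. For PCSK1 in F3 the 6 filled points are all below 0, and in every panel the groups overlap.

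PCSK1 is a convertase that acts early in the pathway, and it had the largest fold change of the members in F2 and in F3. In F1 its normalized counts were 4851, 6518, 3846, 2516 and 2872 in the Veh animals and 4672, 3856, 3914, 4831 and 4530 in the sGC animals. The sGC animals lay inside the wide Veh range, and the log2 fold change was 0.16 (SE 0.18; limma, adjusted p = 0.776). It was 0.0063 without Veh replicate 4 and 0.35 without Veh replicate 2. In F2 the values were 4256, 2393, 4457, 3528 and 3674 in Veh and 4652, 3653, 3538, 4476 and 4925 in sGC. Of the 5 sGC animals, 3 lay above the highest Veh animal, and the log2 fold change was 0.23 (SE 0.15; limma, adjusted p = 0.569). After median-of-ratios scaling it was 0.31 (SE 0.12; limma, unadjusted p = 0.0265, adjusted p = 0.322), with 5 of 5 sGC animals above the Veh mean. On the deposited scale it was 0.089 without Veh replicate 2.

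In F3 PCSK1 ranged from 4791 to 6007 in Veh, with a median of 4971, and from 3093 to 5056 in sGC, with a median of 4311. Each of the 6 sGC animals was below the Veh mean and 5 of 6 were below the lowest Veh animal, but 1 sGC animal at 5056 lay within the Veh range. The means were 5144 ± 456.9 (SD, n = 6) in Veh against 4160 ± 750.2 (SD, n = 6), and the log2 fold change was -0.32 (SE 0.10; 95% confidence interval -0.54 to -0.10). The unadjusted p-value was 0.00733 and the adjusted one 0.215 (limma). An exact two-sided permutation test of this gene alone gave p = 0.0173, where the smallest p that 6 against 6 animals allow is 0.00216. Within the first sequencing batch, with 4 sGC animals, the log2 fold change was -0.24 (limma, unadjusted p = 0.0239, adjusted p = 0.447), and with batch as a covariate it was -0.24 with an adjusted p of 0.483. The lowest sGC animal was from the second batch.

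PCSK2, the convertase that acts later in the maturing granule, did not share this pattern in its values. In F1 it was 4216, 5518, 4317, 5276 and 3277 in Veh and 3958, 3718, 4308, 4670 and 3296 in sGC, and the log2 fold change was -0.17 (SE 0.14; limma, adjusted p = 0.669). In F2 the values were 2949, 4637, 3903, 5870 and 3567 in Veh and 3689, 4190, 4343, 4071 and 4062 in sGC. The 5 sGC animals sat within a narrow band inside the Veh range, and the group means of the log2 values differed by less than 0.01. In F3 it ranged from 3616 to 4182 in Veh (median 3956) and from 3488 to 4578 in sGC (median 4051), a log2 fold change of 0.03 (95% confidence interval -0.08 to 0.15).

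The ratio of PCSK1 to PCSK2 within each animal does not depend on the scaling of the samples. It is given as a description with no test, because it was chosen after the values of F3 had been seen, and as a comparison of the ratio between animals only, since the ratio itself also depends on the lengths of the genes. In F1 it was 1.15, 1.18, 0.891, 0.477 and 0.876 in Veh and 1.18, 1.04, 0.909, 1.03 and 1.37 in sGC. In F2 it was 1.44, 0.516, 1.14, 0.601 and 1.03 in Veh and 1.26, 0.872, 0.815, 1.1 and 1.21 in sGC. The lowest animals of F1 and F2 were Veh animals, and the groups overlapped. In F3 the ratio ran from 1.18 to 1.45 in Veh (median 1.31) and from 0.878 to 1.16 in sGC (median 1.06). These F3 ranges did not overlap, with or without the second batch: the 4 sGC animals of the first batch had 0.878, 1.16, 1.1 and 1.05. The gap between the closest Veh and sGC animals, 1.18 against 1.16, was small beside the SD of 0.0873 in Veh and 0.116 in sGC.

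**Figure D2:**
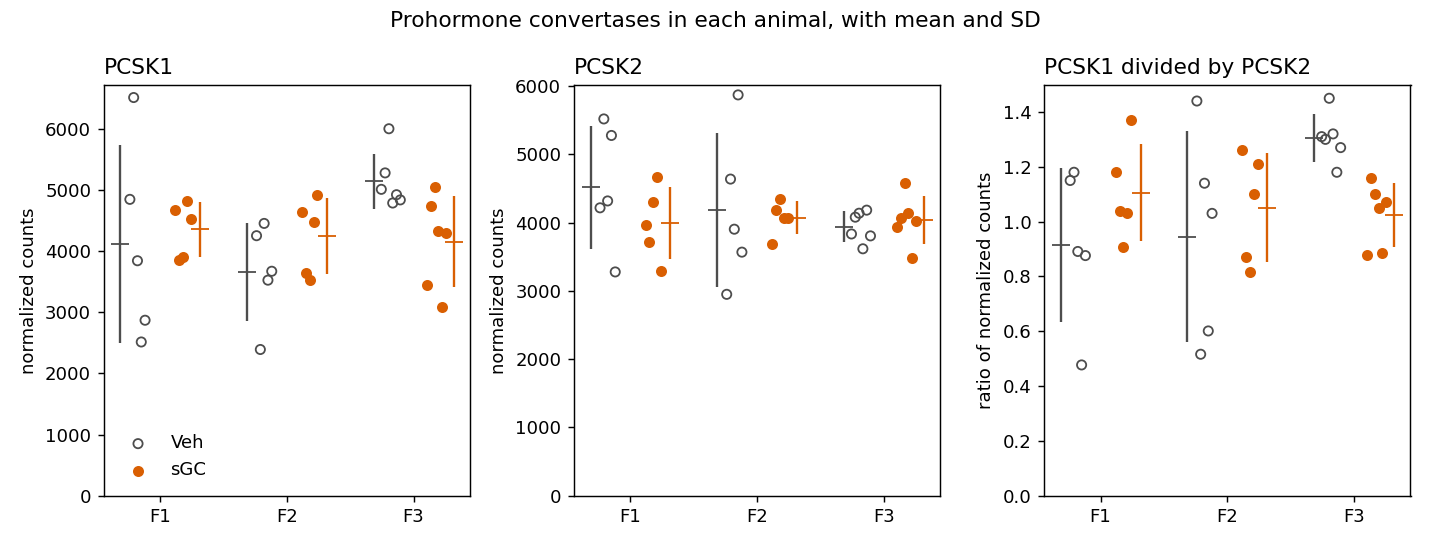
Normalized counts of PCSK1 and PCSK2 and their ratio (vertical axes, from 0) in each animal of F1, F2 and F3 (horizontal axis); open points are Veh, filled points sGC, and the crosses with bars beside them give mean and SD. The F3 ratios are 1.18 to 1.45 in Veh and 0.878 to 1.16 in sGC, while in F1 and F2 the groups overlap.

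CPE is the carboxypeptidase that follows the convertases. In F1 it was 37911, 44064, 34342, 27055 and 31819 in Veh and 35609, 38733, 33605, 34528 and 29921 in sGC. The sGC animals again lay inside the Veh range, with a log2 fold change of -0.01 (95% confidence interval -0.30 to 0.28). In F2 it was 35306, 32911, 36176, 31167 and 35365 in Veh and 35282, 27097, 29802, 34499 and 32914 in sGC, with 2 sGC animals below the lowest Veh animal. The F2 log2 fold change of -0.10 (95% confidence interval -0.31 to 0.10) was -0.03 after scaling. In F3, where CPE ran from 36132 to 40825 in Veh (median 38049) and from 35708 to 38883 in sGC (median 37462), the interval of -0.09 to 0.04 was narrower.

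PAM, the amidating enzyme that vasopressin and oxytocin need for activity, was 13497, 18545, 12910, 10037 and 11688 in F1 Veh and 15169, 16166, 14425, 15168 and 14415 in F1 sGC. All 5 sGC animals were above the Veh mean, though not above the highest Veh animal, and the log2 fold change was 0.21 (SE 0.14; limma, adjusted p = 0.574). In F2 PAM was 15042, 11628, 15969, 14371 and 15692 in Veh and 17097, 13161, 13589, 15482 and 16347 in sGC, and the log2 fold change of 0.06 (SE 0.10) became 0.13 (SE 0.06) after scaling. In F3 the range was 12547 to 14916 in Veh (median 13111) and 10114 to 15306 in sGC (median 12499). There 5 of 6 sGC animals lay below the Veh mean but 1 lay above every Veh animal, and the log2 fold change was -0.11 (95% confidence interval -0.27 to 0.06), or -0.03 within the first batch.

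SCG5, the chaperone of PCSK2, had the smallest SD within groups of the members on the deposited scale in each generation (0.199 log2 units in F1, 0.113 in F2 and 0.0297 in F3). Its F1 values were 19749, 23284, 18153, 15428 and 15657 in Veh and 17781, 17119, 20106, 19734 and 16126 in sGC, and its F2 values were 16111, 16076, 17499, 16137 and 17327 in Veh and 19456, 15109, 15573, 17718 and 17009 in sGC. The log2 fold changes were -0.01 and 0.02. After median-of-ratios scaling they were -0.07 in F1 (limma, adjusted p = 0.369) and 0.10 in F2 (0.53), where 5 of 5 sGC animals were above the Veh mean. In F3 SCG5 ran from 16393 to 17676 in Veh (median 16841) and from 17086 to 17551 in sGC (median 17309). All 6 sGC animals were above the Veh mean, but the difference of 0.04 on the log2 scale did not pass the test (limma, adjusted p = 0.512; exact permutation p = 0.0714).

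Among the granins, SCG2 in F1 was 21009, 25995, 18725, 15273 and 15110 in Veh and 18339, 16881, 20291, 22914 and 17400 in sGC, and the log2 fold change was 0.02 (SE 0.15). In F2 it was 17143, 16715, 18458, 15704 and 17657 in Veh and 21015, 15645, 14705, 18318 and 17309 in sGC, and in F3 it ran from 17865 to 20551 in Veh (median 18857) and from 16870 to 19267 in sGC (median 18511). The log2 fold changes were 0.01 in F2 (0.09 after scaling) and -0.05 in F3. SCG3, which binds CHGA in the granule membrane, was 7394, 8975, 6707, 5535 and 5708 in F1 Veh and 6761, 6199, 6421, 7195 and 5387 in F1 sGC. Its log2 fold change was -0.09 (SE 0.13), and after median-of-ratios scaling -0.15 (SE 0.05; limma, unadjusted p = 0.0198, adjusted p = 0.0842), with all 5 sGC animals below the Veh mean. In F2 SCG3 was 6256, 5523, 6475, 5567 and 5942 in Veh and 6419, 5199, 5387, 6593 and 5271 in sGC, and in F3 it was 6450 to 7351 in Veh (median 6866) and 6675 to 7476 in sGC (median 6935).

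CHGA, a granin that promotes granule formation, was 3240, 3261, 2769, 2194 and 2609 in F1 Veh and 2949, 3966, 3278, 3084 and 3043 in F1 sGC. All 5 sGC animals were above the Veh mean, with a log2 fold change of 0.22 (SE 0.13; limma, unadjusted p = 0.0963, adjusted p = 0.48). In F2 it was 3184, 2791, 3314, 2767 and 3521 in Veh and 3568, 2524, 2529, 2693 and 3327 in sGC, with 3 sGC animals below the lowest Veh animal and a log2 fold change of -0.10 (SE 0.11). After median-of-ratios scaling the F2 fold change was -0.02 (SE 0.08). In F3 CHGA ran from 3273 to 4386 in Veh (median 3665) and from 2869 to 3850 in sGC (median 3152). Of the 6 sGC animals 4 lay below the lowest Veh animal, and the log2 fold change was -0.18 (SE 0.08; limma, unadjusted p = 0.0349, adjusted p = 0.344; exact permutation p = 0.0801). Within the first batch it was -0.10 (limma, unadjusted p = 0.214).

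CHGB, analysed here in F1 only, was 9428, 11430, 8307, 6685 and 7082 in Veh and 9405, 9180, 8192, 8486 and 7214 in sGC, with group means that differed by less than 0.01 on the log2 scale (95% confidence interval -0.28 to 0.29). VGF was 6257, 6881, 5088, 3196 and 4431 in F1 Veh and 5052, 4562, 5889, 7568 and 3765 in F1 sGC. The log2 fold change of 0.06 had a confidence interval of -0.32 to 0.44. In F2 VGF was 5024, 4489, 5120, 5426 and 6461 in Veh and 6026, 4694, 5411, 5496 and 4842 in sGC, and in F3 it ran from 5201 to 6069 in Veh (median 5412) and from 5273 to 5671 in sGC (median 5490). The F3 interval of -0.09 to 0.06 was the narrowest, though the fit did not count the variation that the normalization had removed.

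**Figure D3:**
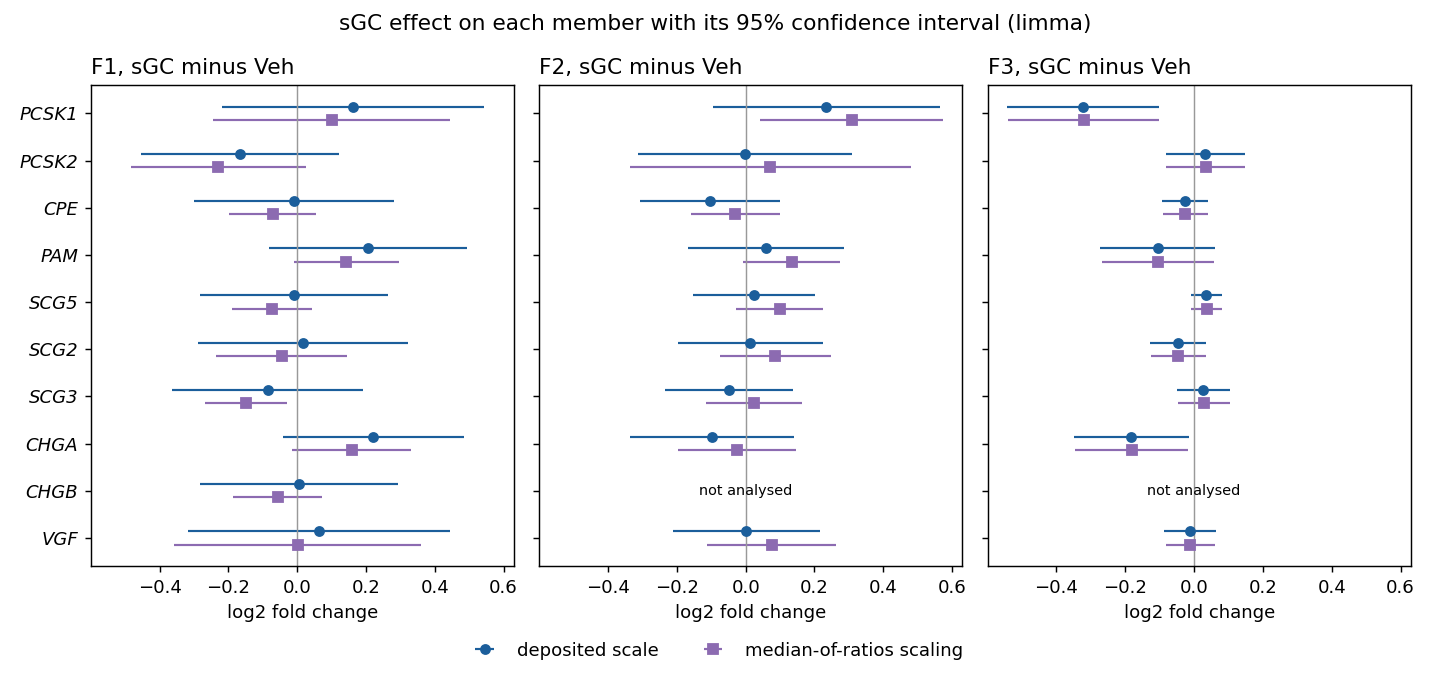
Log2 fold change of sGC against Veh (horizontal axis) for each member (vertical axis) in F1, F2 and F3, with 95% confidence intervals from limma, on the deposited scale (circles) and after median-of-ratios scaling (squares). On the deposited scale in F3, the intervals of PCSK1 (-0.54 to -0.10) and CHGA (-0.35 to -0.01) lie below 0.

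Whether the sGC effect differed between generations was tested by the difference of the fold changes, each formed within its own table. No member passed an adjusted p-value of 0.05 for F1 minus F2 (0 of 9; 7.64% of all genes), F1 minus F3 (0 of 9; 3.13%) or F2 minus F3 (0 of 9; 0.00875%). For PCSK1 the fold change in F2 exceeded that in F3 by 0.56 on the log2 scale (95% confidence interval 0.07 to 1.05; limma, unadjusted p = 0.0268, adjusted p = 0.521), and that in F1 exceeded that in F3 by 0.48 (limma, adjusted p = 0.281). For CHGA the fold change in F1 exceeded that in F3 by 0.40 (95% confidence interval 0.10 to 0.71; limma, unadjusted p = 0.0119, adjusted p = 0.137). After median-of-ratios scaling this CHGA difference was 0.34 with an adjusted p of 0.0438 (limma; 17.6% of all genes were called in that fit, and 17.4% when scaled to the sample total, which also called CHGA). The adjusted p was 0.0797 once the directions removed by the normalization were counted as covariates. Without Veh replicate 2 of F1, the animal with the highest sum, the F1 minus F3 differences of PCSK1 (0.67, adjusted p = 0.0421), PAM (0.44, adjusted p = 0.0326) and CHGA (0.46, adjusted p = 0.0486) passed limma's threshold, where 11.2% of all genes did.

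The members differed in how much they varied between animals of the same group. After median-of-ratios scaling, the SD of PCSK1 within groups was 0.288 log2 units in F1, 0.218 in F2 and 0.21 in F3, against a median of 0.0862, 0.1 and 0.0563 over the genes whose mean reached 1000. This put PCSK1 at percentile 96.6, 91 and 98.2 of those genes. PCSK2 stood at percentile 92.4, 97.5 and 89.6. VGF was at percentile 96.9 in F1 but at 77.6 in F2 and 58.5 in F3. PAM and CHGA were both at percentile 96 in F3, and SCG5 was at 46.5, 32.1 and 2.87. CPE was at 49.5, 16.5 and 40.9. Among these genes both convertases were thus at percentile 89.6 or above in each generation after scaling, and the trimming enzyme and the PCSK2 chaperone at 49.5 or below. On the deposited scale both convertases were at percentile 89.7 or above. There CPE was at 70.4, 44.4 and 46.1 in F1, F2 and F3, and SCG5 at 59.8, 25.5 and 5.22.

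**Figure D4:**
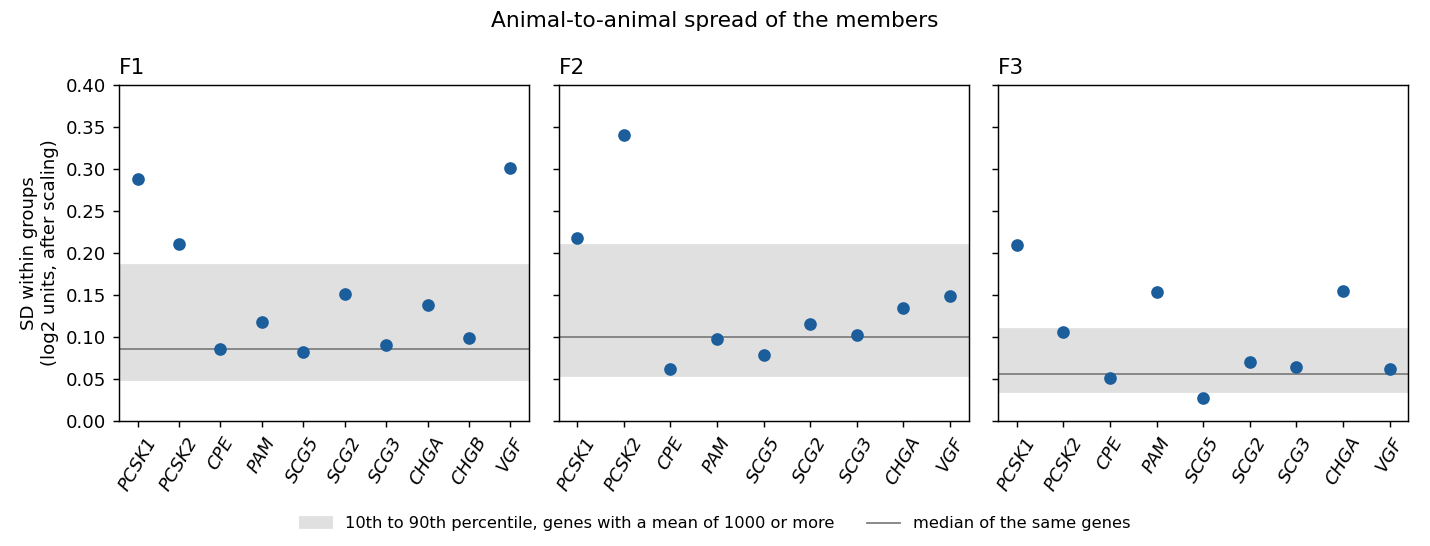
SD of each member between animals of the same group (vertical axis, log2 units after median-of-ratios scaling) in F1, F2 and F3; the line and the band give the median and the 10th to 90th percentile of all genes whose mean reached 1000. PCSK1 lies above the band in each generation (0.288, 0.218 and 0.21), and SCG5 lies below it in F3.

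The members did not vary as 1 block. Correlations were taken over animals after removing the means of the sGC and Veh groups. The sequencing batch was not removed, so the F3 correlations also hold any difference left between batches, and no first-batch value is given. In F3, sGC replicate 5, of the second batch, was the lowest animal for PCSK1 (3093), PCSK2 (3488), PAM (10114) and CHGA (2869). The correlations share the libraries, and the normalization removed 1 direction of variation in F1, 1 in F2 and 2 in F3. Over the 36 pairs of the 9 members the mean Pearson r of the 3 generations had a median of 0.195 after scaling, from -0.333 to 0.796, with 9 pairs below 0. On the deposited scale, which keeps the differences in sums, the median was 0.561. The highest pair was PCSK1 with PAM, with r = 0.695 in F1 (n = 10), 0.835 in F2 (n = 10) and 0.858 in F3 (n = 12), and Spearman's rho of 0.455, 0.733 and 0.86. Without the 2 animals farthest from the median of PCSK1, r was 0.077, 0.358 and 0.659, so after scaling the relation in F1 and F2 rests on those animals. On the deposited scale r without the 2 farthest was 0.565, 0.807 and 0.645.

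SCG2 was close to SCG3 and SCG5. It had r = 0.874, 0.86 and 0.465 with SCG5 (rho 0.939, 0.818 and 0.448) and 0.791, 0.598 and 0.767 with SCG3 (rho 0.77, 0.806 and 0.692) in F1, F2 and F3. Leaving out the 2 animals farthest in SCG2 left r at 0.749, 0.79 and 0.452 with SCG5 and at 0.583, 0.655 and 0.667 with SCG3. PCSK1 and PCSK2 had r = -0.306 in F1, -0.512 in F2 and 0.817 in F3 (rho -0.0788, -0.576 and 0.755). Without the 2 animals farthest in PCSK1 these were 0.175, -0.379 and 0.559, and on the deposited scale the F1 value was 0.32, so the sign in F1 depends on the animals and on the scale. PAM had r = -0.945 with TRH in F3 (n = 12; rho -0.902; -0.888 without the 2 farthest animals) but -0.0943 in F1 and -0.39 in F2. In F1 it was 0.329 on the deposited scale, and in F2 without the 2 farthest animals it was -0.0936 after scaling and 0.645 on the deposited scale, so a negative relation in F1 or F2 does not hold across these settings.

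**Figure D5:**
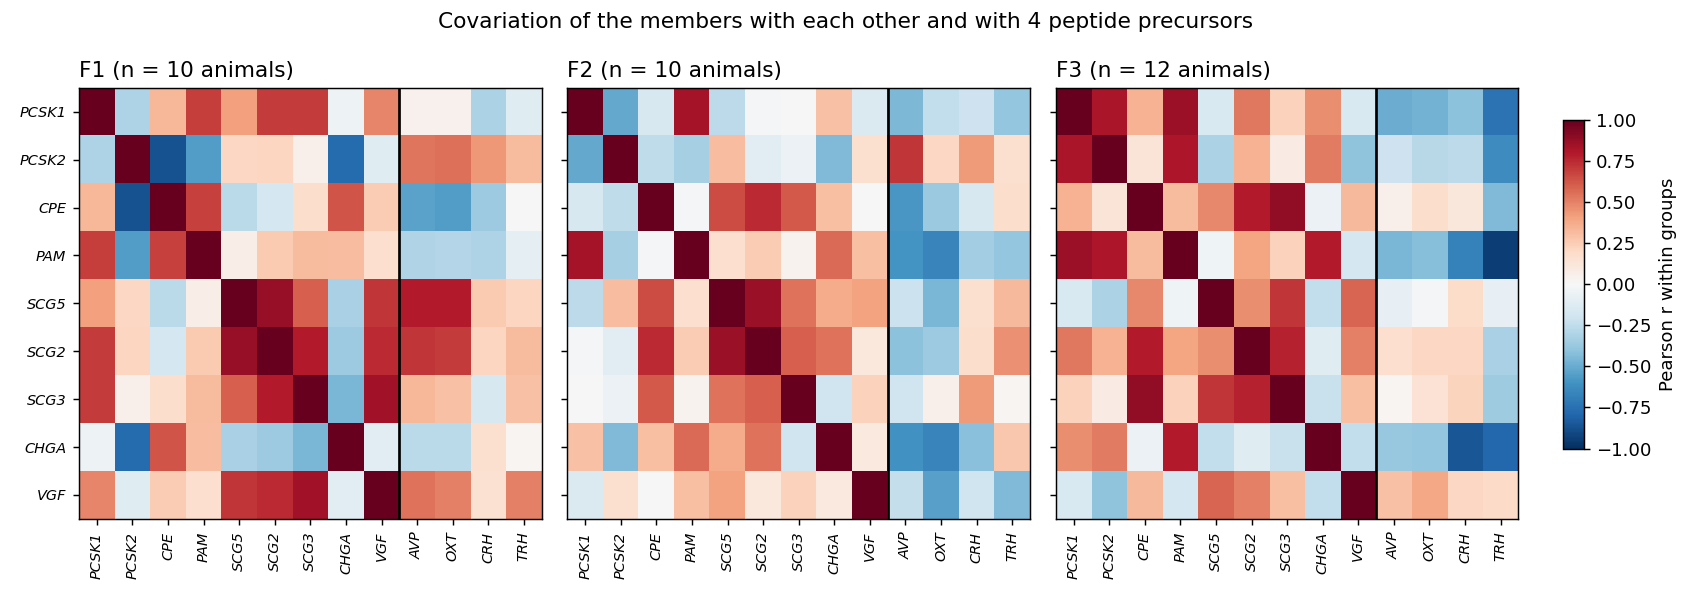
Pearson r between animals, after removal of group means and median-of-ratios scaling, of each of 9 members (rows) with the members and with the precursor genes AVP, OXT, CRH and TRH (columns, right of the line), for F1, F2 and F3; red is positive and blue negative. PCSK1 with PAM is positive in each generation (0.695, 0.835 and 0.858), and PAM with TRH is -0.945 in F3.

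Among all genes whose mean reached 50 in every table (10542 on the deposited scale, 10539 after scaling), the gene most like each member was found by the mean r over the 3 generations, and it is given for 8 of the 9 members. For PCSK1 it was PAM on the deposited scale (mean r 0.894) and COG7, a subunit of a Golgi tethering complex, after scaling (0.82). For SCG2 it was SYT4, a synaptotagmin found on dense-core vesicles, on both scales (0.865 and 0.825). For CHGA it was SCD5, a fatty acid desaturase, on both scales (0.94 and 0.874), with r = 0.986 in F3 after scaling. For CPE it was LSM12 on both scales (0.915 and 0.763). For PAM, SCG3, SCG5 and VGF the gene changed with the scale: PAM from SIAE (0.928) to SYT6 (0.821), SCG3 from METTL5 (0.88) to MESDC2 (0.741), SCG5 from DNAJC21 (0.914) to MEAF6 (0.822), and VGF from S100PBP (0.849) to MEAF6 (0.774).

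AVP, OXT, CRH and TRH encode peptide precursors that these enzymes process. In F1, AVP, the vasopressin precursor, had normalized counts of 48718 to 110112 in Veh and 10482 to 102436 in sGC, and the log2 fold change was -1.47 (SE 0.42; limma, adjusted p = 0.11), and OXT, the oxytocin precursor, had one of -1.54 (SE 0.42; limma, adjusted p = 0.0884). CRH stood at -1.17 (adjusted p = 0.116) and TRH at -0.94 (adjusted p = 0.0802) in the same limma fit. TRH passed after scaling (-1.0 on the log2 scale, adjusted p = 0.0398). The groups overlapped for each of these precursors. All 4 passed without sGC replicate 4 of F1 (adjusted p of 0.00332 for AVP and OXT, 0.0169 for CRH and 0.00139 for TRH) and without sGC replicate 3 (0.00883, 0.00752, 0.0341 and 0.049), and TRH also without sGC replicate 2 (0.0462). Without sGC replicate 1 the log2 fold change was smaller for CRH (-0.71), AVP (-1.08) and OXT (-1.14), and over all animals left out in turn the adjusted p-values reached 0.278 for AVP, 0.253 for OXT, 0.317 for CRH and 0.173 for TRH (limma). Against these values, the F1 fold changes of the 10 members lay between -0.17 and 0.22. The 10 PVN markers tested include these 4 precursors and SST. Their median log2 fold change in F1 was -0.67, against -0.70 for CALB2 (limma, adjusted p = 0.142), -0.64 for OTP (0.234), -0.35 for POU3F2 (0.415), -0.34 for SIM1 (0.382) and 0.10 for CALB1 (0.827), with a summed level of 6719 to 12880 per M in Veh and 1788 to 10590 in sGC. The median F1 log2 fold change was 0.44 for the 6 endothelial markers tested, 0.35 for the 6 microglia markers and 0.25 for the 11 oligodendrocyte markers, against 0.07 over all genes, and 0 markers of these lists passed (1 microglia marker after scaling). Their summed levels in Veh and sGC were 355.1 to 395.5 and 356.4 to 666.7 per M for endothelial markers, 199.6 to 211.3 and 199.8 to 354.9 for microglia markers, and 1952 to 3440 and 2177 to 5682 for oligodendrocyte markers. The 5 ependymal and choroid plexus markers tested had a median of 0.15, and summed levels of 276.1 to 317.6 per M in Veh and 264.8 to 351.7 in sGC. Among them the choroid plexus marker TTR was 0 to 21 normalized counts in Veh and 0 to 492 in sGC. FOXJ1 and KL had log2 fold changes of 0.15 and 0.20, while CCDC153 and RSPH1 had -0.30 and -0.31. Whether the content of the punch has a part in the F1 values of the members was not tested, and in bulk tissue fewer cells of a type and less RNA per cell cannot be told apart.

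In F2 the precursors had log2 fold changes of 0.40 for AVP, 0.65 for OXT, 0.54 for CRH and 0.19 for TRH, with adjusted p-values of 0.543, 0.244, 0.328 and 0.653 (limma). The PVN markers had a median of 0.24 there, against -0.08 over all genes. OTP had 0.32 (limma, unadjusted p = 0.0105, adjusted p = 0.278), POU3F2 0.28 (0.0107 and 0.278) and SIM1 0.20 (0.0323 and 0.394). SST had 0.13 (limma, adjusted p = 0.893), while CALB1 had -0.04 (0.901) and CALB2 -0.13 (0.874). The summed level of the list was 3700 to 6905 per M in Veh and 5132 to 12180 in sGC. In F3 the 4 precursors had 0.04, 0.05, -0.06 and -0.20, with adjusted p-values of 0.825 or more. In F2, of 13 oligodendrocyte markers 11 had groups that did not overlap (2.40% of all genes), all lower in sGC, with a median log2 fold change of -0.75 and a summed level of 7533 to 14250 per M in Veh and 4643 to 6533 in sGC. SOX10 (-0.58) and UGT8 (-0.75) had the smallest p-values among them, each with an adjusted p of 0.055 (limma). Both passed without Veh replicate 1 (0.0406 each) or Veh replicate 4 (0.0144 and 0.0167), and SOX10 without sGC replicate 5 (0.0451). Over all animals left out in turn the adjusted p of each reached 0.176 (limma). The median was -0.36 for the 6 endothelial markers (359.4 to 580.8 per M in Veh and 330 to 403.4 in sGC) and -0.20 for the 12 neuron markers (7565 to 9656 and 7907 to 9059). The part of these shifts in the F2 values of the members was not tested. In F3 the summed neuron markers were 8245 to 8593 per M in Veh and 7956 to 8282 in sGC.

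Of the other processing enzymes and their partners, 1 of the 20 tested passed in F1, against 0.657% of all genes. This was PCSK5, a convertase of the constitutive as well as the regulated pathway, which rose in sGC. Its mean was 339.8 ± 65.15 (SD, n = 5) normalized counts in Veh against 545.8 ± 81.97 (SD, n = 5). Its values were 253 to 430 in Veh and 449 to 665 in sGC, with no overlap, which gives 0.69 on the log2 scale (SE 0.15; limma, adjusted p = 0.0314) and stayed past the threshold after scaling (0.63, adjusted p = 0.00421). The call was lost without Veh replicate 3 (adjusted p = 0.0872), Veh replicate 4 (0.113) or Veh replicate 5 (0.08). It was also lost with a block on the replicate numbers (limma, adjusted p = 0.0571). PCSK5 had a log2 fold change of 0.06 in F2 and -0.09 in F3. After scaling 3 of the 20 passed in F1, where 17.3% of all genes were called: PCSK5, the carboxypeptidase gene CPM (0.53, adjusted p = 0.0171) and ECE2, which encodes an endothelin-converting enzyme (-0.16, adjusted p = 0.0441), the last 2 named after their values were seen. CPM also had no overlap in F1, at 195 to 288 in Veh and 308 to 489 in sGC. With PCSK5 this made 2 of the 20, where 2.04% of all genes had no overlap. PCSK1N, the inhibitor of PCSK1, had -0.04 in F1, -0.11 in F2 and -0.02 in F3, with adjusted p-values of 0.666 or more. In F2 and F3, 0 of 22 and 0 of 24 genes of the list passed. PCSK6, a convertase of the constitutive pathway, was the 1 of the 22 without overlap in F2 (2.40% of all genes), at 337 to 477 in Veh and 199 to 275 in sGC. The log2 fold change was -0.64 (SE 0.12; limma, adjusted p = 0.0622). The adjusted p was 0.0488 without Veh replicate 1 and 0.0248 without Veh replicate 4, and it reached 0.176 over all animals left out in turn. The list's median log2 fold change was 0.11 in F1 (0.07 over all genes), -0.08 in F2 (-0.08) and -0.03 in F3 (0.00).

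Of the genes for granule biogenesis and cargo sorting, 0 of 41 passed in F1, 0 of 39 in F2 and 0 of 41 in F3. After median-of-ratios scaling 14 of the 41 passed in F1, 6 higher and 8 lower in sGC, where 17.3% of all genes were called. The median log2 fold changes were 0.00, -0.08 and 0.01 in F1, F2 and F3. In F3 the groups did not overlap for 3 of the 41 (1.21% of all genes). SORCS1, a sorting receptor, ran from 896 to 1105 in Veh and from 697 to 843 in sGC, and the log2 fold change was -0.32 (limma, adjusted p = 0.0764). RAB10, a small GTPase of vesicle transport, ran from 3843 to 4011 in Veh and from 4199 to 4523 in sGC, and the log2 fold change was 0.12 (limma, adjusted p = 0.0689). Within the first batch the log2 fold change was -0.29 for SORCS1 and 0.10 for RAB10, with adjusted p-values of 0.218 and 0.212 (limma). With batch as a covariate the adjusted p-values were 0.21 and 0.196.

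Of the exocytosis genes, 0 of 34 passed in F1, 0 of 33 in F2 and 0 of 33 in F3, with median log2 fold changes of 0.07, -0.10 and -0.04. After scaling 5 of the 34 passed in F1, 4 higher and 1 lower, where 17.3% of all genes were called. SYTL2, a Rab27 effector, was the 1 of the 34 without overlap in F1 (2.04% of all genes). Its F1 values were 167 to 228 in Veh and 241 to 428 in sGC (log2 fold change 0.68; limma, adjusted p = 0.0569, and 0.0334 after scaling). It passed without Veh replicate 2 (0.046), sGC replicate 3 (0.0176) or sGC replicate 4 (0.0317). Over all animals left out in turn its adjusted p reached 0.186. In F3 the groups did not overlap for 3 of the 33 (1.21% of all genes). The Rab27 effector EXPH5 ran from 100 to 128 in F3 Veh and from 77 to 95 in F3 sGC, a log2 difference of -0.42 (limma, adjusted p = 0.0689). The adjusted p was 0.0466 without sGC replicate 4 and reached 0.158 over all animals left out in turn. The F1 log2 fold change of EXPH5 was 0.76 (limma, adjusted p = 0.132) and after scaling 0.70 (adjusted p = 0.0424). CADPS, which primes dense-core granules for release, ran from 5444 to 5720 in F3 Veh and from 5011 to 5344 in F3 sGC, and the log2 fold change was -0.11 (limma, adjusted p = 0.0768). Within the first batch the F3 fold changes of EXPH5 and CADPS were again -0.42 and -0.11, with adjusted p-values of 0.212 and 0.242 (limma). With batch as a covariate the adjusted p-values were 0.19 and 0.21. Of the peptide precursors, 0 of 32, 0 of 33 and 0 of 29 passed in F1, F2 and F3. In F2 the groups did not overlap for 1 of the 33, near the 2.40% of all genes. This was PDYN, the precursor of the dynorphins, at 2330 to 3321 in Veh and 3416 to 4452 in sGC (log2 fold change 0.38; limma, adjusted p = 0.183).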

How the data were processed

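PVN punches of single females were sequenced from non-stranded TruSeq libraries, so a gene and an antisense partner cannot be told apart. Per the labels and the study's methods, the authors aligned reads to cavPor3, counted them on genes, dropped outliers, applied ComBat to the F3 batches and used the residual method of RUVSeq. The deposited whole numbers are therefore normalized counts, and they were handled as a score with no fixed range. The authors' log2 fold changes, likelihood ratio score and p-value columns were not used. The re-sequenced Veh libraries of F3 were not analysed here.

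Each table was fitted with limma 3.58.1 in R 4.3.3 (eBayes with trend) on log2(value + 1), without covariates, on genes whose mean reached 10 (11874 in F1, 11965 in F2, 11866 in F3). P-values were adjusted by Benjamini-Hochberg, and 0.05 was the threshold. The pseudocount of 1 understates the change of low genes. Differences between generations came from a joint limma fit of the 11429 genes tested in all tables. Named were all members, AVP, OXT, CRH and TRH, and from each list the genes under the threshold (at most 5) or else the 2 without overlap with the smallest p. PCSK1N, CPM, ECE2 and single cell type markers were named outside this rule. The procedure was tested on simulated data. The members and lists were chosen with earlier results of these data known. No sequence is shown, because no genome of the files' build was used here. The number of animals and their spread set the precision, and no counting interval was given. Alternatives were another scaling, pseudocount 10, other filters, the removed directions as covariates, each animal left out, the F3 batch and a replicate block. The main fit did not count the removed directions, so its intervals may be too narrow. With them as covariates the lowest adjusted p of the members went from 0.48 to 0.597 in F1, 0.569 to 0.676 in F2 and 0.215 to 0.475 in F3 (limma). The gene most like PCSK2 is not reported here.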

Additional observations from a re-analysis of the deposited data

How the results depend on the processing

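No member was called in any generation under any alternative that was run. The number of all genes called moved: in F1 from 78 to 2058 with median-of-ratios scaling, 1943 when scaled to the sample total and 1345 with that median-of-ratios scaling and the removed directions as covariates; in F2 from 0 to 17 among genes whose mean reached 50; and in F3 from 6 to 1 with the removed directions as covariates (with or without scaling), 2 in the first batch and 3 with batch as a covariate. Leaving out each animal in turn gave 15 to 474 genes in F1, 0 to 114 in F2 and 1 to 15 in F3.

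Members whose effect differed between generations moved from 0 to 1 for F1 minus F2 when scaled to the sample total (SCG5, -0.17 on the log2 scale, adjusted p = 0.0428 by limma; 1599 of all 11427 genes were called) and from 0 to 1 for F1 minus F3 with median-of-ratios scaling or scaling to the total (CHGA, 0.34 and 0.35; 17.6% and 17.4% of all genes). Leaving out each animal gave 0 to 3 for F1 minus F3, with 3 without F1 Veh replicate 2 (11.2% of all genes). The PCSK1 difference of F1 minus F2 ran from -0.23 to 0.12.

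Small fold changes turned. With median-of-ratios scaling (with or without the removed directions as covariates) and with scaling to the total, the log2 fold change became -0.046 and -0.040 for SCG2 in F1, -0.057 and -0.051 for CHGB in F1, 0.072 and 0.082 for PCSK2 in F2, and 0.025 and 0.035 for SCG3 in F2. For VGF in F3 it was 0.0083 in the first batch and with batch as a covariate. Leaving out each animal gave, in F1, -0.097 to 0.079 for CPE, -0.062 to 0.13 for SCG2, -0.16 to 0.016 for SCG3, -0.070 to 0.078 for SCG5, -0.077 to 0.12 for CHGB and -0.097 to 0.18 for VGF. In F2 it gave -0.12 to 0.13 for PCSK2, -0.019 to 0.11 for PAM, -0.058 to 0.071 for SCG2, -0.026 to 0.065 for SCG5 and -0.056 to 0.076 for VGF. In F3 it gave -0.0042 to 0.074 for PCSK2, -0.030 to 0.014 for VGF, -0.17 to 0.25 for AVP, -0.19 to 0.29 for OXT, -0.20 to 0.078 for CRH and -0.38 to 0.014 for TRH. Other fold changes kept their direction but moved: in F1 to -0.28 without Veh replicate 5 and -0.088 without Veh replicate 2 for PCSK2, to 0.11 without Veh replicate 4 and 0.33 without Veh replicate 2 for PAM, and to 0.13 without Veh replicate 4 for CHGA; in F2 to 0.23 without sGC replicate 2 for AVP, and to 0.10 without Veh replicate 4 and 0.31 without Veh replicate 2 for TRH. In F2, CPE also moved to -0.046 without sGC replicate 2, and CHGA to -0.17 without sGC replicate 1 and -0.049 without sGC replicate 2. In F3, PAM moved to -0.17 without sGC replicate 3 and -0.0465 without sGC replicate 5, and SCG2 to -0.023 without sGC replicate 5. The causes were not tested.

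PCSK1 in F3 kept its direction under every alternative, from -0.38 without sGC replicate 3 to -0.24 in the first batch, with adjusted p-values of 0.138 to 0.483. Its log2 ratio to PCSK2, sGC minus Veh, was -0.36 in F3 and -0.39 to -0.31 when each animal was left out. The same difference was 0.33 in F1 (0.11 to 0.44 when each animal was left out) and 0.24 in F2 (0.044 to 0.41).

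The headers of the tables number the animals of both groups alike, but nothing given says that a number is shared by a litter or a day. The deviations of same-numbered animals had r above 0.1 in 1 of 5 pairs in F1, 1 of 5 in F2 and 2 of 6 in F3, so the numbers were not taken as a pairing. A replicate block on these numbers, chosen after seeing the data, called 0 members in each generation and 146, 6 and 0 of all genes in F1, F2 and F3. Among the genes named, PCSK5 in F1 lost its call (limma, adjusted p = 0.0571), and SYTL2 in F1 (0.0453) and SOX10 and UGT8 in F2 (0.0476 each) were called.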
